A study of Mus musculus with 4 samples.

Results

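The Nr4a orphan nuclear receptors are a family of 3 genes, Nr4a1 (also called Nur77), Nr4a2 (Nurr1) and Nr4a3 (Nor1). Their members were taken by name, as all probe sets of the Mouse Genome 430A 2.0 array that carry a single one of these symbols. This gave 5 probe sets of 20380 with 1 symbol, and 3 genes of 12393. Nr4a1 was read by 1 probe set, and Nr4a2 and Nr4a3 by 2 each. The study gave electroconvulsive stimulation (ECS), an animal model of electroconvulsive therapy, to mice and asked how granule cells of the dentate gyrus (DG) respond. Dissected DG RNA was read on 4 arrays, 1 per group, each hybridised with RNA pooled from 3 mice. Sham-treated mice were dissected 1 h after the session, and so were mice given a single ECS and mice given 11 ECS, whereas a further group was dissected 48 h after the last of 10 ECS. The labels give the strain as C57Bl/6 and the methods as C57BL/6J or C57BL/6N, without saying which was used here, and by the methods the mice were male and 8 weeks old when purchased. ECS was a 25 mA current through ear clips for 1 s under isoflurane, with 4 sessions a week where it was repeated. Sham treatment was the same handling without current, and by the figure legends the mice with 10 ECS were given a sham session 1 h before dissection. Groups follow the sample titles, since the free-text descriptions of 3 samples name other treatments.

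With 1 array a group there is no spread between replicates, so no test and no p-value is given, and 2-fold is used as a size. Signals are MAS5 intensities on a linear scale. A floor of 12 units, set at the lower quartile of the signals, replaced any lower signal. A ratio with the dimmer array at the floor is a lower bound, and with both arrays at the floor there is no value. On the arrays, the only error available is how far several probe sets of a gene lie apart. The pooled SD of their log2 ratios lay between 0.27 and 0.29 in the 4 comparisons, and was 0.35 for the difference of responses, over 3489 to 3673 genes. It does not cover mice or arrays. The paper also measured Nr4a1 in these groups by real-time PCR, on the RNA samples it used for the arrays. It reports that induction at 1 h was significantly suppressed by repeated ECS. In bulk DG tissue, fewer cells of a type and less RNA per cell cannot be told apart on these arrays. In DG sections, the paper found staining for the neuronal marker NeuN unaffected by repeated ECS.

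Nr4a proteins are transcription factors of the nuclear receptor family for which no classical hormone ligand is established, because bulky side chains fill the pocket where other receptors hold one. Their activity is therefore thought to follow mainly from how much of them is made, and their genes are immediate early genes, transcribed within minutes of calcium or cyclic AMP signals without new protein synthesis. They bind an element called NBRE as monomers, and Nr4a1 and Nr4a2 can also pair with retinoid X receptors. In the hippocampus the family is known for its part in memory formation, and Nr4a2 is best known for the development of dopamine neurons. One route to their transcription is CREB, a factor activated by calcium and cyclic AMP, which binds the cyclic AMP response element (CRE).

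The promoters of the 3 genes are shown because the genes were compared for moving together after ECS, and because CREB sites are their best-known inputs. Each window runs from 250 bases before to 50 after a RefSeq start site of GRCm38.p6. Nr4a1 lies at chr15:101266596-101266895 on the plus strand, Nr4a2 at chr2:57123954-57124253 on the minus strand and Nr4a3 at chr4:48045055-48045354 on the plus strand. Capitals mark the CRE core, CGTCA or its complement TGACG.

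Nr4a1: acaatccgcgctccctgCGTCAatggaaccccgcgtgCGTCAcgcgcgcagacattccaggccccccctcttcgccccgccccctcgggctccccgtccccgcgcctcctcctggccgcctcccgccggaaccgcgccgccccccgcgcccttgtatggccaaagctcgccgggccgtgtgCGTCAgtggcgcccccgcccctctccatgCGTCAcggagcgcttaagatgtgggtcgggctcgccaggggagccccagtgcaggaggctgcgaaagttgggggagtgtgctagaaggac

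Nr4a2: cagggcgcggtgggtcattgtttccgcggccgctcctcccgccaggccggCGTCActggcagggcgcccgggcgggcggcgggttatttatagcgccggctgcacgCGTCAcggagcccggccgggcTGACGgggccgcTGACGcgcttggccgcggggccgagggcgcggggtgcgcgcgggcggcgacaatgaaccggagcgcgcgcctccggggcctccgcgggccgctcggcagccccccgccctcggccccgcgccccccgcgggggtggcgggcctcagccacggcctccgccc

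Nr4a3: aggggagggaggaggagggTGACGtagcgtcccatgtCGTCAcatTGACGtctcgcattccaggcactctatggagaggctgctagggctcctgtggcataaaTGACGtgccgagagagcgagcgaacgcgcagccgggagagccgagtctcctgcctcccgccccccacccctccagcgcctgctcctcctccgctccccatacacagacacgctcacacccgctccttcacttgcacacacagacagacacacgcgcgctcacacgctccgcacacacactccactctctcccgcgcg

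Each of the 3 promoters held 4 CRE cores. Of 32851 promoter windows of this length, 20.8% held at least 1 core on either strand and 76 windows (0.23%), belonging to 69 genes, held 4 or more. The Nr4a windows were rich in G and C, at 72.3% for Nr4a1, 81.7% for Nr4a2 and 64.7% for Nr4a3, against a median of 52.7%. Among the 5849 windows within their range of G and C content, 32.5% held at least 1 core and 0.55% at least 4.

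The arrangement of the cores differed between the members. All 4 cores of Nr4a1 lay in the same orientation and within the longer word TGCGTCA, which was chosen after the sequence was seen. Only 2.12% of all windows held that word on either strand, and that of Nr4a1 was the only window with more than 2 copies. In Nr4a1 the cores formed a pair from -233 to -209 and a pair from -69 to -36, counted from the start site. In Nr4a2 they lay between -200 and -107, with 2 in each orientation. In Nr4a3 they lay between -231 and -143, and 3 of 4 were on the other strand. None of the 3 windows held the full palindrome TGACGTCA (1.79% of windows) or an NBRE, AAAGGTCA (1.51%), on either strand. Nor did any hold an exact CArG box, the site of serum response factor, read as CCWWWWWWGG with W for A or T (1.63%). Sites with a mismatch were not searched for. Nr4a2 held a MEF2 site (3.19%) from -167 to -158. It overlapped a match to TATAAA (13.6%) on the other strand, from -164 to -159. These are matches of letters, and factor binding was not measured.

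**Figure D1:**
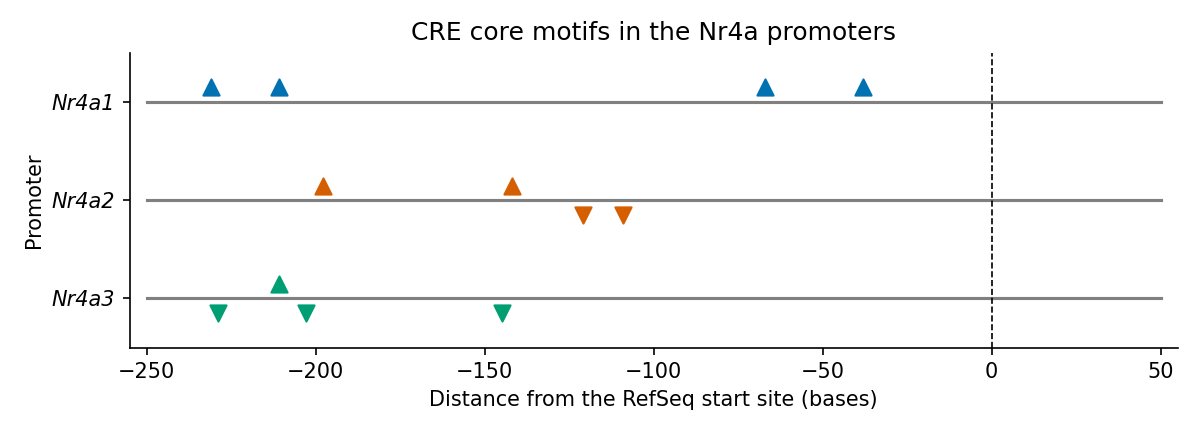
CRE cores (CGTCA, triangles above the line; TGACG, triangles below it) in the promoter windows of the 3 Nr4a genes, by distance in bases from the RefSeq start site (dashed line at 0). Each gene has 4 cores, and only Nr4a1 has cores within 100 bases of the start site.

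The core was also counted in 2 related gene lists, as a description. The first list held other immediate early genes, most of them transcription factors. Of its 22 genes with a promoter window, 17 (77.3%) held at least 1 core in the window richest in them, with a mean of 1.18. The share was 23.0% over 27025 genes and 12 of 40 other nuclear receptor genes held one.

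Nr4a1 (probe set 1416505_at) had a signal of 177 units in sham, 1833 at 1 h after a single ECS, 103 at 48 h after 10 ECS and 860.3 at 1 h after 11 ECS. The signal was high on both arrays dissected 1 h after an ECS and low on the other two, and both high values stood above 90% of the probe sets of their arrays, at percentiles 96.6 and 92.0.

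The brighter probe set of Nr4a2 (1450750_a_at) had 131 units in sham, 2009 after a single ECS, 128 after 10 ECS and 1415 after 11 ECS. Its other probe set (1450749_a_at) had 104, 1044, 89.7 and 509.6 units in the same order. Both probe sets were highest after a single ECS and next highest after 11 ECS, as Nr4a1 was. The sham and 10 ECS values of the brighter probe set have no settled order, since it turned with each scaling of the arrays.

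Nr4a3 was close to the limit of measurement. Its brighter probe set (1421079_at) had 0.7 units in sham, 24.7 after a single ECS, 9.0 after 10 ECS and 9.5 after 11 ECS. Its other probe set (1421080_at) had 5.0, 5.9, 3.8 and 3.8 units. Only the value after a single ECS was above the floor, and it lay at percentile 37.1 of its array, below the array's median of 56.3 units. All 5 probe sets had their highest signal after a single ECS, but for the dimmer Nr4a3 probe set every signal was under the floor.

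**Figure D2:**
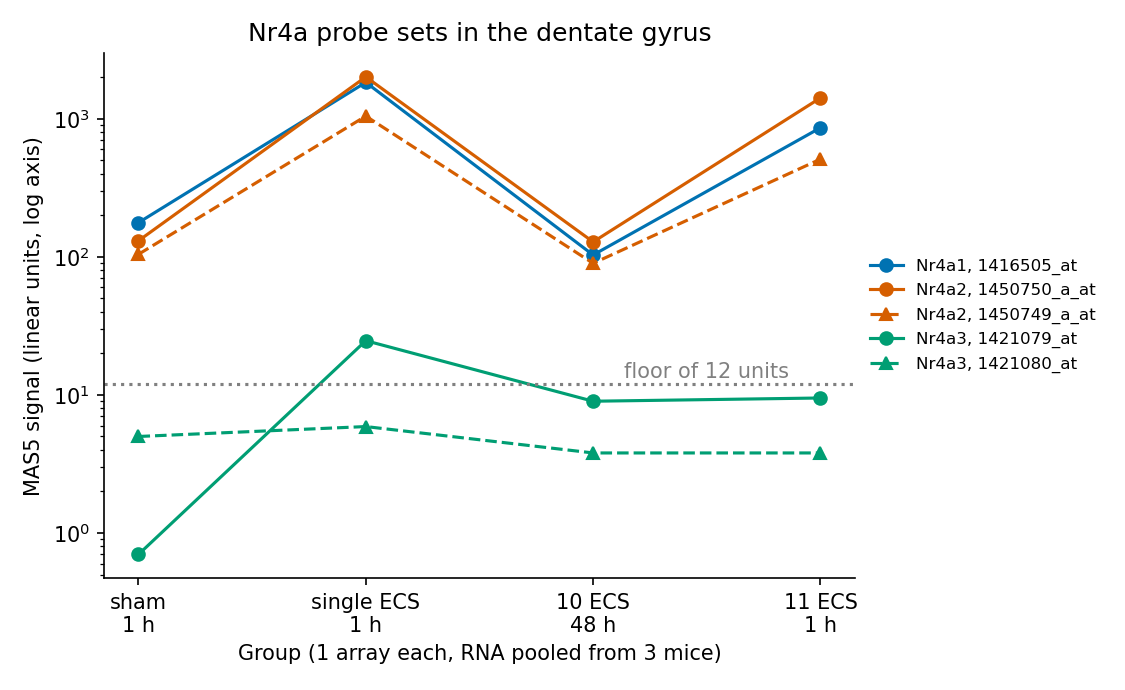
Signal (MAS5 units, log axis) of the 5 Nr4a probe sets on the 4 arrays, each point 1 array; circles are the brightest probe set of a gene, triangles the other, and the dotted line is the floor of 12 units. Nr4a1 and both probe sets of Nr4a2 read between 89.7 and 177 units on the sham and 10 ECS arrays and between 509.6 and 2009 at 1 h after an ECS, whereas Nr4a3 exceeds the floor only after a single ECS, at 24.7.

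The comparison of a single ECS with sham describes the acute response of naive mice. Nr4a2 was 15.4-fold higher by its brighter probe set, a log2 ratio of 3.94, and 10.0-fold (3.32) by the other. Nr4a1 was 10.4-fold higher (3.37), and Nr4a3 at least 2.06-fold higher. All 3 genes were therefore at least 2-fold higher, where 1.2% of 10133 genes were. The place of Nr4a3 among them rests on 1 probe set at 24.7 units and on its single array above the floor, and it was lost, leaving 2 genes, with a floor of 50 and with the median over probe sets (log2 ratio 0.52). With bounds entered as values, Nr4a2 ranked 8 and Nr4a1 ranked 12 from the highest ratio, and the bound of Nr4a3 would rank 113. The 2 probe sets of Nr4a2 lay 0.62 apart, more than the pooled SD of 0.29. The median over all genes was -0.24, and with the arrays scaled to the same median, which brought it to 0.05, the log2 ratios were 4.24 for Nr4a2 and 3.67 for Nr4a1.

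Other members of the nuclear receptor family were compared by list. Of 46 other nuclear receptor genes listed, 39 were on the array and 28 had a value or a bound. By these, 0 were at least 2-fold higher, where 1.2% of 10133 genes were, 2 were lower and 26 lay between. The bounds of Nr0b2, Hnf4a, Ppara, Esr1, Thrb and Esrrb lay under 2-fold, which does not settle the size of their change. Nr0b2 went from 5.2 to 18.7 units and Hnf4a from 4.2 to 16.8. The median log2 ratio of the 28 was -0.16, against -0.24 over all genes. The highest was the bound of Nr0b2, at least 1.56-fold, at 18.7 units after a single ECS. Both lower genes, named after their values were seen, were dim, Nr1d1 (a clock receptor) going from 45.8 to 22.7 units and Nr5a1 from 27.4 to 12.5. The glucocorticoid receptor gene Nr3c1 went from 426.5 units in sham to 253 after a single ECS, a log2 ratio of -0.75, against -0.15 and -0.36 by further probe sets.

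The retinoid X receptors, partners of Nr4a1 and Nr4a2, lay under 2-fold in all 4 comparisons. Over all genes, between 0.782% and 1.93% were past 2-fold in the directions counted, and 0 of 3 lies near these shares. Rxrb had 289 units in sham, 190.1 after a single ECS, 271 after 10 ECS and 141 after 11 ECS. It was lower on both arrays at 1 h after an ECS, by 1.52-fold and 1.92-fold. Rxra had 93.3, 69.4, 66.4 and 63.7 units in the same order, and Rxrg 25.0, 24.0, 26.1 and 21.4.

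**Figure D3:**
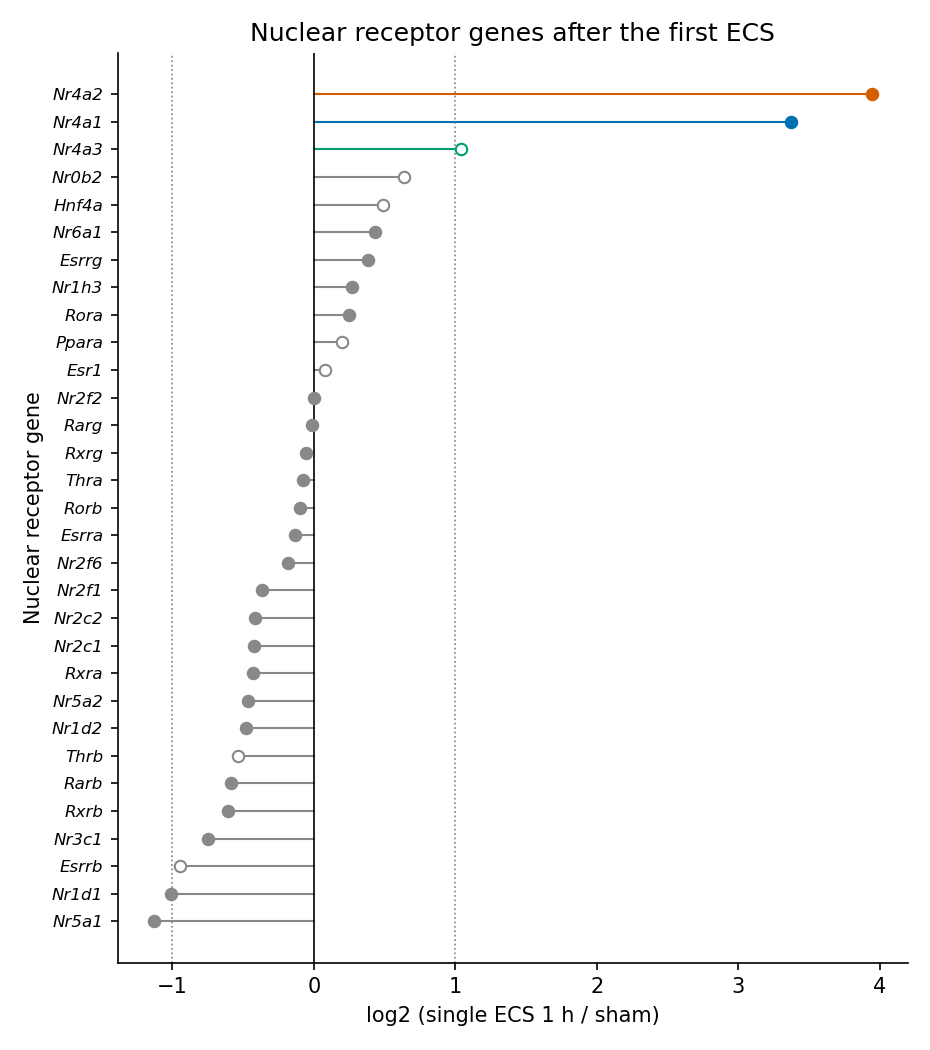
Log2 ratio of single ECS 1 h over sham for the 3 Nr4a genes (colours) and the 28 other nuclear receptor genes with a value or bound (grey), brightest probe set of each gene. Open circles are bounds with 1 array at the floor, dotted lines mark 2-fold, and the 3 Nr4a genes lie at 3.94, 3.37 and at least 1.04. No other receptor lies past 2-fold higher by its value or bound.

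The 11 ECS array was compared with the array at 48 h after 10 ECS, a pair that has no array in common with the first response. Nr4a2 was 11.0-fold higher by its brighter probe set (log2 ratio 3.46) and 5.68-fold (2.51) by the other. Nr4a1 was 8.34-fold higher (3.06). Nr4a3 was under the floor on both arrays and had no value. Both genes with a value were thus at least 2-fold higher, against 1.06% of 10046 genes, ranking 8 and 11. Again none of the 28 other nuclear receptor genes with a value or bound was at least 2-fold higher by it, and 1, Nr5a1, was lower. A count of 0 of 28 lies near the 1.06% over all genes. Nr5a1 went from 31.4 to 4.6 units, at least 2.62-fold.

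The ratios were somewhat smaller after the 11th ECS than after the first. The difference of log2 responses was -0.31 for Nr4a1, and -0.48 and -0.82 for the brighter and the other probe set of Nr4a2. Both values of Nr4a2 were beyond the pooled SD of 0.35 between probe sets of a gene. That of Nr4a1 was within it, but beyond the SD of 0.24 among probe sets with at least 100 units, to which Nr4a1 belongs. Neither SD covers mice or arrays, so neither shows that a difference would recur. Over the 8999 genes above the floor on all 4 arrays, the median difference was 0.13 and 29.6% were below 0, and 704 genes ranked at or below Nr4a1 and 410 at or below Nr4a2. Of 29 other immediate early genes measured from the list, 18 were at least 2-fold higher after the first ECS, against 1.2% of 10133 genes. After the 11th, 12 of 28 were, against 1.06% of 10046 genes. Of the 14 that were 2-fold higher with the first and exceeded the floor on each array, 12 responded by a smaller ratio to the 11th, with a median difference of -0.54 and a range from -2.82 to 0.67. These 14 were picked by their first ratio, which by itself tends to make the later one smaller.

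On the linear scale the gain in signal was more reduced than the ratio for Nr4a1, but only slightly more for the brighter Nr4a2 probe set. The first fold divided by the later fold was 1.24 for Nr4a1, and 1.39 and 1.76 for the brighter and the other probe set of Nr4a2. Nr4a1 gained 1656.5 units with the first ECS and 757 with the 11th, 45.7% of the first gain. Nr4a2 gained 1878 and 1287 units (68.5%) by its brighter probe set and 940.1 and 419.9 (44.7%) by the other. Each of the 18 other early genes of the list gained less with the 11th ECS, with a median of 53.8% and a range from 4.07% for Btg2 to 93.7% for Egr1. They were picked by their first response, and so were the 122 genes in all that were at least 2-fold higher after the first ECS, of which 116 gained less with the 11th, with a median of 49.4%. For 7 of the 18 the percentage was below that of Nr4a1, and for 14 below that of the brighter Nr4a2 probe set.

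**Figure D4:**
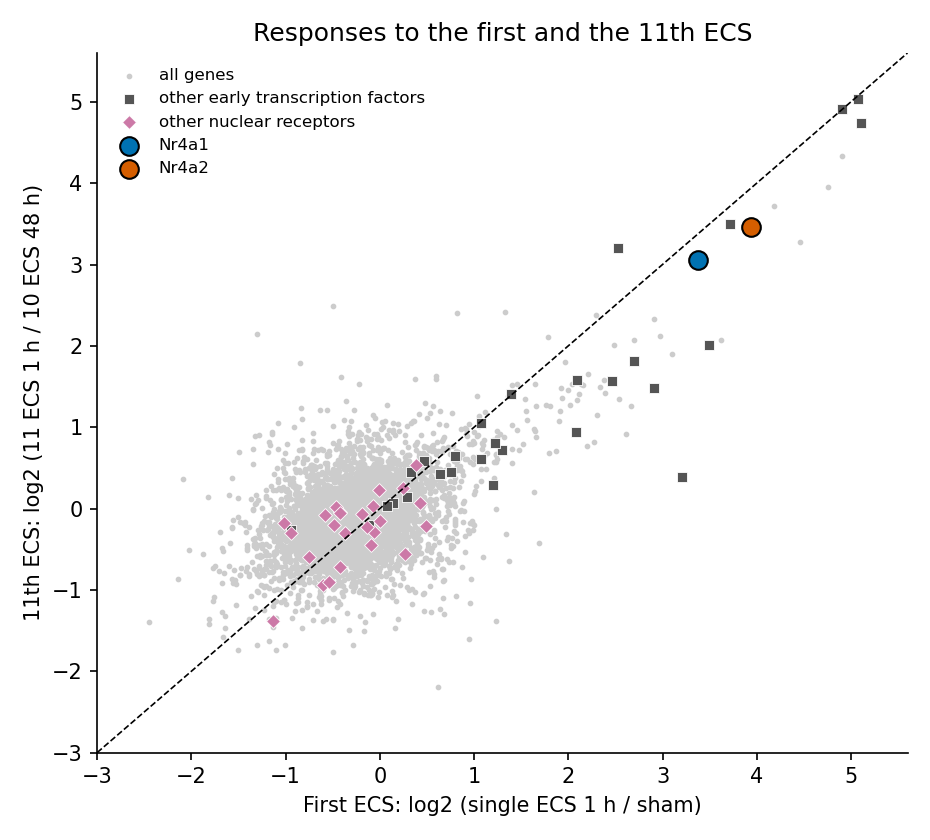
Log2 ratio after the 11th ECS (11 ECS 1 h over 10 ECS 48 h) against that after the first (single ECS 1 h over sham), with 1 point for a gene that has both values. The dashed line marks equality, and a gene at the floor on 1 array is drawn at its bound. Nr4a1 (3.37 and 3.06) and Nr4a2 (3.94 and 3.46) lie just below the line among the listed early genes (labelled other early transcription factors), far from the other nuclear receptors. Nr4a3 has no value after the 11th ECS and is not drawn.

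The level before the stimulus and the level reached at 1 h were compared separately. At 48 h after 10 ECS, 0 of 2 Nr4a genes with a value were at least 2-fold apart from sham, against 1.93% of 10202 genes. The members differed here. Nr4a1 was 1.71-fold lower than in sham, a log2 ratio of -0.78, which placed it 345 from the lowest. Nr4a2 was at -0.03 by its brighter probe set, a sign that turned to 0.12 with the arrays scaled to the same median, and at -0.22 by the other. For all genes the median was -0.14.

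At 1 h, the 11 ECS array read lower than the single ECS array for every member above the floor on either. Nr4a1 was 2.13-fold lower (log2 ratio -1.09), and Nr4a3 at least 2.06-fold lower. Nr4a2 was 1.42-fold lower (-0.51) by its brighter and 2.05-fold (-1.04) by its other probe set, which lay 0.53 apart. Taking the brightest probe sets, 2 of 3 genes were at least 2-fold lower, where 0.782% of 9971 genes were, and 1 of these 2, Nr4a3, only as a bound from a signal of 24.7 units. Nr4a1 ranked 60 from the lowest and Nr4a2 ranked 581, and the median of all genes was 0.00. Of 28 other early genes of the list with a value, 5 were at least 2-fold lower and 0 higher, with a median of -0.41. This comparison uses the same arrays as both responses and adds no separate evidence.

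Nr4a1 thus had a lower signal on both arrays of the repeated treatment than on the corresponding array without it, by 1.71-fold and 2.13-fold. Against the sham array, the level after 11 ECS was 4.87-fold higher for Nr4a1. The corresponding values for Nr4a2 were 10.8-fold and 4.89-fold by its 2 probe sets. The summed signal of 7 granule cell markers was also lower on the arrays of the repeated treatment, at 4168 units after 10 ECS against 7071 in sham and at 3629 after 11 ECS against 5903 after a single ECS. Calb1 (3234 and 1507 units in sham and after 10 ECS) and Dsp (1702 and 993) made up most of that difference. All 7 markers were lower after 10 ECS than in sham. Tdo2 was 1.83-fold, Il1r1 1.46-fold, Rbfox3 1.32-fold, Prox1 1.20-fold and Neurod1 1.15-fold lower. On the 11 ECS against the single ECS array, the same genes were 2.29-fold, 1.72-fold, 1.24-fold, 1.11-fold and 1.05-fold lower, in this order. The paper reports Calb1, Tdo2, Dsp and Il1r1 as reduced by repeated ECS, and proposes a changed maturation state of mature granule cells. The sum therefore does not measure granule cell content alone. The part of the 7 markers in the Nr4a1 differences was not tested.

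The genes with the pattern most like that of each member were found by the Euclidean distance between log2 signals over the 4 arrays, each centred on the gene's own mean, among genes with at least 48.0 units on their brightest array. Nearest to Nr4a1 among 7790 genes was Fos, the early gene of the AP-1 factor c-Fos, at a distance of 0.40, with 139, 1833, 82.8 and 937 units from sham to 11 ECS. Like Nr4a1, Fos was lower after 10 ECS than in sham. Egr1 (0.72), Egr4 (0.78), Inhba, which encodes a subunit of activin (0.79), and Nr4a2 (0.83) followed.

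Nearest to Nr4a2 was Homer1, a postsynaptic scaffold gene (0.51), which was at the floor on the sham and 10 ECS arrays. Fos (0.61), Nr4a1 (0.83), the synaptic pentraxin gene Nptx2 (0.89) and Sertad1, a coregulator of transcription (1.01), followed. Nptx2 differed from the others in reading higher after 11 ECS, at 1673.5 units, than after a single ECS, at 1305. Nr4a3 had its nearest genes in Pmepa1 (0.13), Skil (0.20) and Egr3 (0.23), which were high after a single ECS alone, but with 3 of 4 arrays at the floor its own pattern is set by the floor. These distances are over 4 arrays and describe likeness only.

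**Figure D5:**
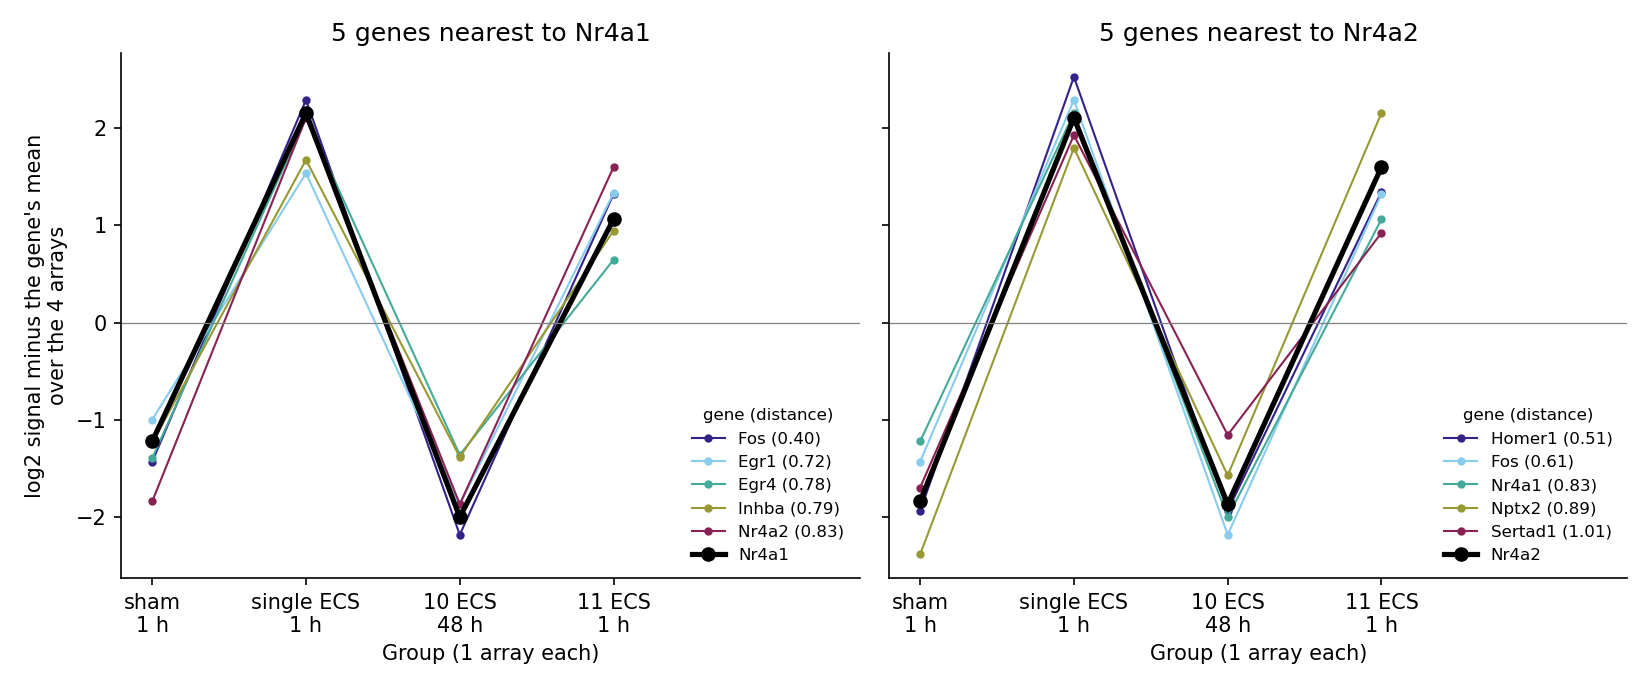
Log2 signal minus the gene's own mean over the 4 arrays for Nr4a1 (left) and Nr4a2 (right, both black) and the 5 genes nearest to each, with the distance in the legend; each point is 1 array. All follow the same up and down course, Fos lying closest to Nr4a1 (0.40) and Homer1, at the floor on 2 arrays, closest to Nr4a2 (0.51).

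Genes around the family were described by lists. Of signalling and activator genes upstream of Nr4a transcription, 19 were measured. After the first ECS 1 was at least 2-fold higher, 1 was lower and 17 lay between. Over all genes, 1.2% of 10133 were at least 2-fold higher. The median of the list was -0.37, against -0.24 over all genes. The higher one was Sik1, a kinase that restrains CREB coactivators and is itself an early gene, with 18.8, 74.8, 16.5 and 45.5 units from sham to 11 ECS. The lower one was Elk1, a partner of serum response factor, with 306, 142.6, 365 and 143.7 units, and log2 ratios of -0.61 and -1.04 by its other probe set after the first and the 11th ECS. Srf, which encodes serum response factor, had 277, 481, 231 and 362 units, 1.74-fold higher after the first ECS, and past 2-fold by its other probe set. Of 9 measured coregulators of Nr4a proteins, 0 were past 2-fold in any of the 4 comparisons by their brightest probe sets. Over all genes, 1.2% were at least 2-fold higher after the first ECS and 1.06% after the 11th. Between 10 ECS and sham 1.93% were at least 2-fold apart, and 0.782% were lower on the 11 ECS than the single ECS array. A count of 0 of 9 lies near these shares. Other probe sets differed for Rcor1, a corepressor partner of Nr4a2, with a log2 ratio of -1.15 against -0.30 by the brightest for 10 ECS over sham, and for the kinase gene Hipk2, with -1.15 against -0.36 there and 1.11 against 0.17 after the 11th ECS.

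Genes described as Nr4a targets, mostly in other tissues, were counted next. Of 14 with a value after the first ECS, 1 was at least 2-fold higher, 1 was lower and 12 lay between. Over all genes, 1.2% of 10133 were at least 2-fold higher. The median of the targets was -0.14, against -0.24 over all genes. The higher one was Bdnf, which encodes brain-derived neurotrophic factor and is an early gene in its own right, with 471, 2069, 640.4 and 1851 units from sham to 11 ECS. It was 4.39-fold higher with the first and 2.89-fold with the 11th ECS, and its other probe set gave log2 ratios of 2.13 and 2.02. The lower one was the glucose transporter gene Slc2a4, with 48.9, 13.8, 19.6 and 21.6 units in that order, whereas its other probe set had a log2 ratio of -0.35. Th, the dopamine synthesis gene regulated by Nr4a2 in midbrain, was under the floor on all 4 arrays, at 1.4 to 6.4 units. After the 11th ECS, 1 of 15 targets was higher and 0 were lower, where 1.06% of 10046 genes were at least 2-fold higher.

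The arrays were checked for the tissue they are labelled with. All 7 granule cell markers on the array were above the floor on all 4 arrays, and their summed signal was 7071 units in sham, 5903 after a single ECS, 4168 after 10 ECS and 3629 after 11 ECS. Most of that sum was Calb1, with 3234, 2747, 1507 and 1304 units in the same order, and Dsp, with 1702, 1125, 993 and 582. Neurod1 had 1086, 1301, 947 and 1238 units and Prox1, which defines granule cells, 68.6, 69.8, 57.1 and 62.7. Rbfox3 had 449.2, 385.4, 340.4 and 311.2 units, Tdo2 290.2, 188.8, 158.3 and 82.3, and Il1r1 241.0, 85.1, 165.0 and 49.4. Of these markers, the paper reports Calb1, Dsp, Tdo2 and Il1r1 as reduced by repeated ECS. The sums of 9 interneuron markers ranged from 5470 to 6084 units and of 8 astrocyte markers from 10932 to 12425. Those of 9 microglia markers ranged from 2305 to 2456 and of 7 oligodendrocyte markers from 7225 to 8417. Those of 7 endothelial markers ranged from 784 to 914 and of 7 pyramidal cell markers from 1580 to 1858. A sum can hide single members. Of the interneuron markers, Npy had 585.5, 608.2, 1320.2 and 1350.0 units from sham to 11 ECS. Of the astrocyte markers, Gfap had 49.3, 45.6, 114.1 and 135.0. Both were past 2-fold higher after 10 ECS than in sham by the probe set used. The other probe set of Gfap had a log2 ratio of 0.61 there. Choroid plexus markers, 2 of 5 of them at the floor on all arrays, summed to 179, 279, 158 and 131 units from sham to 11 ECS. The high sum after a single ECS was that of Ttr alone, with 67.2, 216, 103 and 76.9 units, whereas Kl, the only other one clearly above the floor, had 74.3, 38.4, 26.6 and 25.2. The part of these cell types in the Nr4a signals was not tested.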

How the data were processed

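RNA of dissected dentate gyrus was amplified by the authors (100 ng per group, pooled from 3 mice) and hybridised to 4 arrays. The deposited values are linear MAS5 signal intensities that the authors computed for each probe set. How the arrays were scaled to each other is not stated in the methods or labels. Of 22626 probe sets besides 64 controls, the array annotation gave 1 symbol for 20380, several for 691 and none for 1555.

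Where several probe sets read a gene, the one brightest on average was used, and log2 ratios between arrays were computed in Python 3.11.15 with pandas 2.3.3, after setting signals under the floor of 12 to it. With 1 array per group the number of arrays limits the precision, and no test was made. The script was tested on simulated data. Promoters came from RefSeq, GRCm38.p6, and all 3 members matched. Per list, up to 4 members farthest from 0 were candidates for naming, among genes with at least 48.0 units (4 times the floor) on the brighter array, and per member the 5 nearest genes. A gene named outside this rule, or a further comparison given for a named gene, was chosen after its values were seen. The members and lists were chosen with earlier results of these data known. Alternatives were other floors, scalings, a pseudocount and other probe sets.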

Additional observations from a re-analysis of the deposited data

How the results depend on the processing

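Recomputed under the alternatives, 32 member counts stayed within 1.5 times the value given and 8 did not, and 75 log2 values of single members moved by less than the spread between probe sets and 12 by more. The 32 include the count after the first ECS, which fell from 3 to 2 with a floor of 50 and with the median over probe sets, where Nr4a3 was lost. The sign of Nr4a2 between 10 ECS and sham turned with scaling, from -0.03 to 0.12. With a floor of 50, a pseudocount of 16 or the median over probe sets, 1 member gene instead of 2 was at least 2-fold lower on the 11 ECS than the single ECS array. Without a floor, 1 gene instead of 0 was 2-fold apart between 10 ECS and sham, which was Nr4a3 (9.0 and 0.7 units), and its log2 response to the first ECS was 5.14. By the second brightest probe set, which has values for Nr4a2 alone, 1 gene was higher after the first ECS, 1 after the 11th and 1 lower on the 11 ECS than the single ECS array, and 1 had a smaller ratio after the 11th. Median scaling raised the first response to 3.67 for Nr4a1 and 4.24 for Nr4a2 and made the difference of responses -0.48 and -0.64. No paired analysis was possible because each group has 1 array, and for the same reason no replicate could be left out. Signal over background limits Nr4a3, which had a bound in the comparisons with the single ECS array and no value in the others.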
